A study of Oryza sativa with 12 samples.

Results

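The drought response of wild type rice leaves was taken from 6 libraries of the cultivar IAPAR9, 3 from plants under drought and 3 from non-stressed control plants, out of 12 libraries in the series. The other 6 libraries hold the idr1-1 mutant under the same pair of conditions. Plants of both genotypes were 5 weeks old, at the five-leaf stage, and were grown in concrete tanks, and the drought groups were sampled at a soil moisture of 10%. The tissue label gives leaf, while the extraction text speaks of seedlings, the replicates are called biological without saying how many plants entered each, and no hour of sampling is given. Each library file lists 55986 entries, of which 55801 carry rice locus identifiers. A count in at least 1 wild type library was found for 35976 of them, 20010 had none, and 22833 had enough counts to be tested, which leaves 13143 counted but untested.

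Leaves that lose water raise the hormone abscisic acid, which closes stomata and switches on genes of protection. Among the best known targets are LEA (late embryogenesis abundant) proteins with the dehydrins among them, which guard cell structures during drying, enzymes of proline synthesis, aquaporins, which are water channels of membranes, and the clade A protein phosphatases 2C, which restrain the hormone's own signal. Genes of photosynthesis, which dominate the messenger RNA of a leaf, are widely reported to fall under severe drought.

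Total counts were 19209866 to 23081155 in the control libraries and 22785020 to 25109848 in the drought libraries. Loci with a count numbered 29671 to 30190 per control library and 29715 to 29729 per drought library. Levels below are counts scaled to the size of the library (CPM), with factors from the trimmed mean of M values, which correct for differences in composition. They are not divided by gene length, so the order of loci by level is an order of reads and not of molecules. Of the genes of leaf cells, RBCS-C, a small subunit of Rubisco, stood at 10704 to 11706 CPM in control, while the silicon efflux transporter LSI2 of roots and the meristem genes OSH1 and OSH15 had 0 counts in all 6 libraries. LSI1, the silicon influx transporter known from roots, was present at 14.7, 18.9 and 15.0 CPM in control and 7.19, 9.96 and 9.11 CPM under drought. The third idr1-1 drought library stood apart, with a correlation of log levels of 0.951 and 0.966 to the other 2 of its group, against 0.983 to 0.988 between wild type replicates. It is in no wild type mean, but it enters the shared estimate of spread and the filter on low counts. Without it, 23197 loci were tested, and 5969 loci were called higher and 5796 lower, against the numbers that follow.

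Drought changed a large share of the wild type leaf transcriptome. Of the 22833 loci tested, 10032 (43.9%) differed between drought and control at an adjusted p under 0.05 by the quasi-likelihood test of edgeR, adjusted after Benjamini and Hochberg. The called loci divided almost evenly, with 5116 (22.4%) higher and 4916 (21.5%) lower under drought. At least a 2-fold difference was reached by 4135 (18.1%), of which 1943 (8.51%) were higher and 2192 (9.6%) lower. All 3 drought libraries lay above all 3 controls at 6900 loci (30.2%) and below all of them at 6735 (29.5%). The median log2 fold change over all tested loci was 0.0048. In bulk leaf RNA, fewer cells of a type and less RNA per cell cannot be told apart.

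The response differed in size by level class. Classes were set from the mean of both wild type group means. Under 1 CPM, 32.2% of 2860 loci were called, 404 higher and 518 lower. From 1 to 10 CPM, 41.0% of 7812 loci were called, 1600 higher and 1606 lower. The share was 48.5% among 10601 loci of 10 to 100 CPM and 50.2% among 1462 loci of 100 to 1000 CPM. It dropped to 31.6% among the 98 loci of 1000 CPM and over, where 20 were higher and 11 lower. Loci called higher made up 43.8% of the called loci in the lowest class, 49.9%, 52.1% and 56.3% in the classes between, and 64.5% in the highest. That order depended on how classes were set: with classes from the control mean alone it turned, to 74.0%, 51.4%, 47.4%, 35.7% and 38.1% from the lowest class to the highest.

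**Figure D1:**
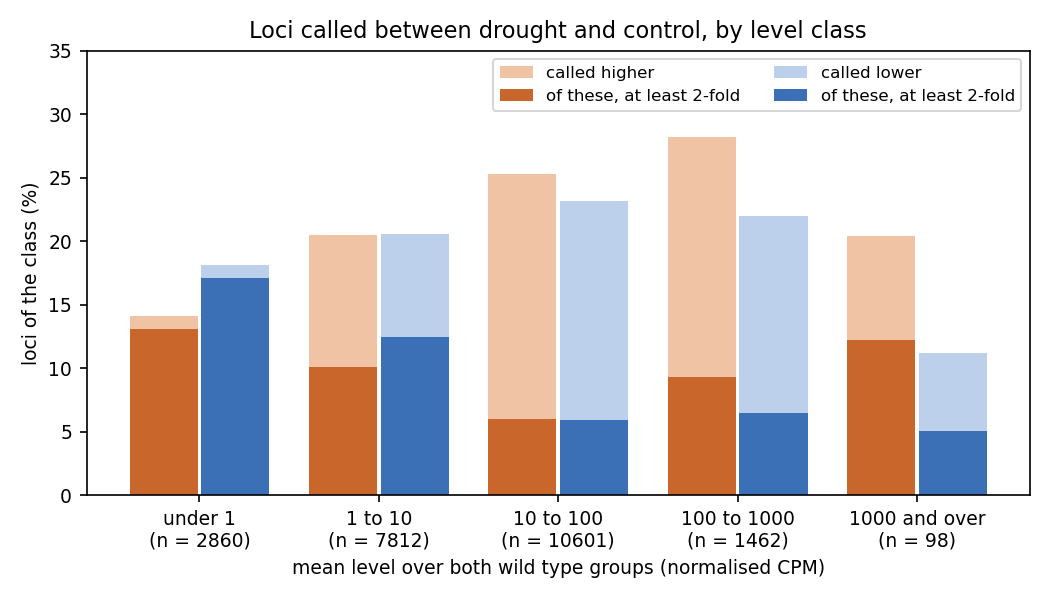
Bars give the percentage of loci of each level class (horizontal axis, mean normalised CPM of both wild type groups) called higher (orange) or lower (blue) under drought at an adjusted p under 0.05, with the dark part at least 2-fold. Calls are most frequent between 10 and 1000 CPM, and the dark part takes most of the bar under 1 CPM.

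Fold size and precision moved with level. Of the called loci under 1 CPM, 93.7% differed at least 2-fold, against 24.6% of those of 10 to 100 CPM. The median absolute log2 fold change fell from 0.78 under 1 CPM to 0.30 at 10 to 100 CPM, and was 0.39 at 100 to 1000 CPM. The median standard error of the log2 fold change was 0.45, 0.22, 0.11, 0.15 and 0.22 from the lowest class to the highest. Small differences among the rarest loci were therefore not detectable at this depth. Replicates of the same group varied by a median of 30.0% in control and 30.4% in drought under 1 CPM, by 7.81% and 7.11% at 10 to 100 CPM, and by 11.6% and 10.4% at 1000 CPM and over. When classes were set from the control mean alone, 37.8% of loci under 1 CPM and 22.1% of those of 1000 CPM and over were called.

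Most loci stayed in their class. Of the tested loci, 18516 had both group means in the same class, 2145 moved up by 1 class and 2044 down by 1. Up by 2 classes went 86 loci and down by 2 went 33. Up by 3 classes, from under 1 CPM to at least 100 CPM, went 9 loci, and none went down by 3. They were RAB21, RAB16B and LEA3-1, described with their gene families, and LOC_Os01g68650, LOC_Os06g12370, LOC_Os10g36180, LOC_Os06g46740, LOC_Os01g50910 and LOC_Os01g68290, which were singled out after their values were seen. LOC_Os01g68650 rose from 0.686 ± 0.189 to 103 ± 9.43 CPM (SD, n = 3), and LOC_Os10g36180 from 0.263 ± 0.192 to 112 ± 27.2 CPM. LOC_Os01g50910 reached 116 ± 59.8 CPM, the widest spread of the 9 relative to its mean. Next to RAB21 and RAB16B, the steepest changes at 100 to 1000 CPM were at LOC_Os03g60580, from 2.52, 2.41 and 0.966 CPM to 262, 183 and 235 CPM, and at LOC_Os05g12640, from 3.8, 5.34 and 1.93 CPM to 405, 457 and 309 CPM.

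The concentration of reads in few loci was not shown to change. The 100 most abundant loci of each library took 27.6%, 29.3% and 26.6% of the counts in the control libraries and 27.3%, 27.4% and 29.5% in the drought libraries. The groups overlapped, and an exact two-sided permutation test gave p = 0.8, where 3 against 3 libraries allow no p below 0.1. Between the group means, 79 loci were among the 100 most abundant of both conditions, and 43 of the 121 loci in either list were called, against 43.9% of all loci.

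Summed over the loci called higher, the change was 146772 CPM. Summed over the loci called lower, it was -110248 CPM. The scaling factors were 1.007 to 1.079 in the control libraries and 0.964 to 1.029 in the drought libraries. Scaled levels therefore do not add up to the same total in each library. These sums are not shares of a library, and the amount by which gains exceeded losses depends on the scaling. Gains were spread widely, since 162 loci made up 50% of them, and 242 loci gained at least 100 CPM each. The 12 largest gains together came to 27544 CPM, 18.8% of the total. Of the losses, 178 loci made up 50%, 161 loci lost at least 100 CPM, and the 12 largest came to 19.8% of the total.

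The largest gain was at LOC_Os07g10840, which the gene table used here does not name. It had 92.1, 108 and 80.6 CPM in the control libraries and 4465, 4101 and 4631 CPM under drought. The groups lay far apart, and the log2 fold change was 5.56 ± 0.51 (SE; adjusted p = 8.28e-06). RCA (LOC_Os11g47970), the Rubisco activase that keeps the carbon-fixing enzyme active, followed with 2081, 1965 and 1980 CPM in control and 5156, 7197 and 6135 CPM under drought. Its log2 fold change was 1.62 ± 0.22 (adjusted p = 0.000169), so a photosynthesis gene stood second among the gains. ALDP (LOC_Os11g07020), a plastid aldolase of the Calvin cycle, had 2340, 2486 and 2351 CPM in control and 4166, 5291 and 4601 CPM under drought, a log2 fold change of 0.97 ± 0.20.

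LOC_Os11g02389 rose from 284, 279.6 and 227 CPM to 3106, 3288 and 3726 CPM. LOC_Os12g02320 rose from 880.1, 890.2 and 722 CPM to 3285, 3364 and 3983 CPM. At both loci the 3 drought libraries were close to each other and above every control library, with fold changes of 12.8 and 4.27. LOC_Os02g10120 went from 732, 842 and 504 CPM to 2314, 2930 and 2454 CPM. LOC_Os11g06720 went from 1120, 1131 and 1021 CPM to 3071, 2721 and 2766 CPM. These rises of 3.71-fold and 2.62-fold were each larger than the spread of either group.

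LOC_Os04g34610 had 177, 192 and 124 CPM in control and 1583, 1788 and 1554 CPM under drought, a log2 fold change of 3.32 ± 0.19. LOC_Os04g59440 had 375, 317 and 485 CPM in control and 1737, 2179 and 1577 CPM under drought. The vacuolar aquaporin gene TIP1-2 (LOC_Os01g74450) had 461, 550.0 and 361 CPM in control and 1571, 1917 and 1545 CPM under drought. None of these groups overlapped. The steepest of the 12 gains was at LOC_Os10g32810, from 19.998, 24.3 and 12.02 CPM to 1213, 1370 and 1106 CPM, a log2 fold change of 6.03 ± 0.35. The weakest was at LOC_Os01g31690, from 4029, 4499 and 3655 CPM to 5974, 5616 and 6548 CPM, with a log2 fold change of 0.57 ± 0.20 and an adjusted p of 0.0344. Its call was lost when any wild type library other than control replicate 2 was left out, with adjusted p of 0.0518 to 0.101, and with the replicate block (0.0661).

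**Figure D2:**
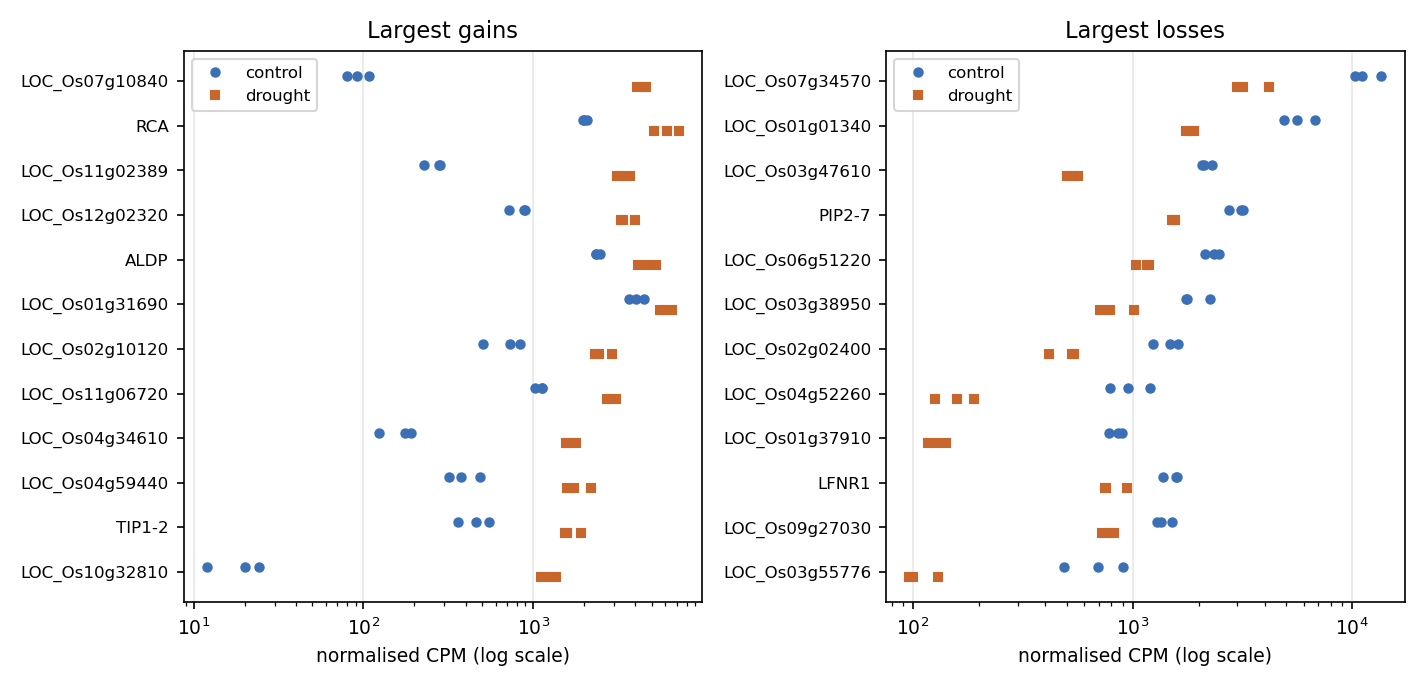
Each point is 1 library of control (blue circles) or drought (orange squares) for the 12 called loci with the largest gain (left) and the largest loss (right), with normalised CPM on a log axis. The groups do not overlap at any of the 24 loci, and the gap is widest at LOC_Os10g32810 and LOC_Os07g10840.

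The largest loss was at LOC_Os07g34570, the locus with the highest control level among the 12. It had 10294, 13533 and 11110 CPM in control and 3177, 2971 and 4185 CPM under drought, a log2 fold change of -1.76 ± 0.25 (adjusted p = 0.000212). LOC_Os01g01340 followed, with 5584, 6780 and 4862 CPM in control and 1865, 1742 and 1912 CPM under drought. Both kept over 1000 CPM under drought while falling 3.38-fold and 3.12-fold. LOC_Os03g47610 fell from 2119, 2076 and 2303 CPM to 531, 501 and 565 CPM, with little spread inside either group.

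Genes with a name were also among the losses. PIP2-7 (LOC_Os09g36930), a plasma membrane aquaporin, had 3179, 3117 and 2746 CPM in control and 1532, 1561 and 1511 CPM under drought, a log2 fold change of -0.97 ± 0.15. LFNR1 (LOC_Os06g01850), a leaf ferredoxin-NADP reductase that makes NADPH at the end of photosynthetic electron transport, had 1371, 1570 and 1590 CPM in control and 748, 759.9 and 942 CPM under drought. In both, every drought library was below every control library. LOC_Os06g51220 fell 2.06-fold, LOC_Os03g38950 fell 2.29-fold and LOC_Os09g27030 fell 1.78-fold.

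Steeper falls were found lower in the list. LOC_Os01g37910 went from 898, 855 and 783 CPM to 128, 141 and 117 CPM, a log2 fold change of -2.72 ± 0.13. LOC_Os03g55776 went from 696, 901 and 485 CPM to 100.045, 96.4 and 130.4 CPM, with more spread among its controls. LOC_Os04g52260 went from 1196, 951 and 791 CPM to 126, 159 and 190.3 CPM. These 3 loci each fell over 6-fold without any overlap between groups. LOC_Os02g02400 fell from 1487, 1607 and 1232 CPM to 528, 542 and 418 CPM.

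Gene families were described from 17 lists of published rice genes, whose members are counted where the gene table held the same name on the same chromosome and in the same order. Where a full list is given, members whose names were not matched are counted too. LEA proteins and dehydrins had the highest median of the 17 lists. Of 8 tested members 7 rose and none fell, against 22.4% of all loci called higher and 21.5% called lower, and the median log2 fold change was 5.12 against 0.0048 over all loci. RAB21 (LOC_Os11g26790), a dehydrin induced by abscisic acid, had 0, 1 and 0 counts in control and 22030, 18645 and 21753 counts under drought, the last equal to 937, 723 and 991 CPM. LEA3-1 (LOC_Os05g46480), a group 3 LEA protein, had 0, 2 and 0 counts in control and 5109, 3569 and 4836 under drought. RAB16B (LOC_Os11g26780), a close relative of RAB21, had 2, 3 and 4 counts in control and 5225, 5444 and 5920 under drought. These loci were near silent in control leaves and stood at 100 to 1000 CPM under drought. DHN1 (LOC_Os02g44870), another dehydrin, was present in control at 48.8, 43.3 and 30.8 CPM and rose to 345, 224 and 266 CPM. EMP1, a LEA protein of embryos, stayed under 1 CPM in both groups and was not called (adjusted p = 0.25).

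Abscisic acid metabolism and signalling moved on both the making and the breaking side. NCED3 (LOC_Os03g44380), the enzyme that commits carotenoids to the hormone, had 3.76, 5.85 and 3.28 CPM in control and 80.9, 59.7 and 39.0 CPM under drought, a log2 fold change of 3.79 ± 0.31 (adjusted p = 3.30e-06). Of the 8'-hydroxylases that break the hormone down, ABA8OX1 rose with a log2 fold change of 1.49 ± 0.32 and ABA8OX2 with 0.61 ± 0.22. The ABA8OX2 call was lost without control replicate 1, 2 or 3 or drought replicate 3, with adjusted p of 0.0577 to 0.169, and with the replicate block (0.0699). ABA8OX3, the most abundant by reads, had 61.5, 59.0 and 52.3 CPM in control and 39.8, 38.7 and 52.2 CPM under drought and was not called (adjusted p = 0.388). Every drought library of ABA8OX3 was below every control, the closest pair nearly equal. It was called as lower with the 6 wild type libraries alone (adjusted p = 0.0185) and without the third idr1-1 drought library (0.0130).

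Of the clade A phosphatases 7 of 9 members were higher and none lower, against 22.4% and 21.5% of all loci, with a median log2 fold change of 2.20. PP2C09 (LOC_Os01g62760) had 105, 116 and 63.2 CPM in control and 434, 377 and 498 CPM under drought. PP2C30 (LOC_Os03g16170) had 33.9, 39.2 and 18.5 CPM in control and 227, 167 and 268 CPM under drought. In both the groups were far apart, with log2 fold changes of 2.20 ± 0.21 and 2.85 ± 0.29. PP2C06 rose 2.99-fold and PP2C50 rose 3.33-fold. The members that did not pass were PP2C08 and PP2C53, with log2 fold changes of 0.34 and 0.16.

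Aquaporins mostly rose. Of 13 tested members 9 rose and 1 fell, against 22.4% and 21.5% of all loci, with a median log2 fold change of 1.59. A 14th, TIP2-1, had too few counts to be tested. PIP1-1 (LOC_Os02g44630) had 322, 367 and 287 CPM in control and 1158, 1244 and 1360 CPM under drought. PIP1-2 (LOC_Os04g47220) had 329, 321 and 292 CPM in control and 947, 989 and 894 CPM under drought. Together with TIP1-2, these plasma membrane and vacuolar channels rose at least 3-fold without overlap of the groups. PIP2-7, the most abundant of the family by reads in control, was the member that fell.

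The photosynthesis lists are set beside 22.4% of all loci called higher and 21.5% called lower, and few of their genes had a matched name. Of 4 named Calvin cycle genes 2 rose, RCA and ALDP described among the gains, and none fell, with a median log2 fold change of 0.40. The full list held 14 tested Calvin cycle genes, of which 2 rose and none fell, with a median of -0.026. In the other full lists, none of 13 tested light-harvesting genes was called. Of 18 tested genes of the photosystems and electron transport 3 rose and 1 fell, and of 11 of photorespiration 1 rose and 2 fell. Neither of the 2 named light-harvesting genes was called. CAB1R had 12722, 13940 and 9574 CPM in control and 14780, 12624 and 16013 CPM under drought, with overlapping groups. Of 5 named genes of the photosystems and electron transport 1 rose and 1 fell. The 3 not called were PETE, plastocyanin, PETC, the Rieske protein, and PSAH, a photosystem I subunit. PETE had every drought library above every control, with a log2 fold change of 0.33. It was called as higher without the third idr1-1 drought library (adjusted p = 0.0353). ADI1, the gene table's name for a leaf ferredoxin gene, was the gene that rose, from 1095, 1091 and 822 CPM to 1770, 1584 and 2035 CPM. Its adjusted p was 0.0337 and lay between 0.0574 and 0.107 without any wild type library other than drought replicate 2, and was 0.0559 with the replicate block. RBCS-C (LOC_Os12g17600) had 10704, 10770 and 11706 CPM in control and 6612, 7244 and 9169 CPM under drought. Every drought library was below every control library, yet the call was not reached with the spread shared over 12 libraries (adjusted p = 0.214). With the 6 wild type libraries alone it was (adjusted p = 0.0216), and without the third idr1-1 drought library as well (0.046). The 3 named photorespiration genes were GLO1 for glycolate oxidase, FD-GOGAT for ferredoxin-dependent glutamate synthase and GLN2 for plastid glutamine synthetase. Their log2 fold changes were 0.04, -0.30 and -0.16, and none was called. FD-GOGAT, with every drought library below every control, was called as lower with scaling by library size (adjusted p = 0.032), with the 6 wild type libraries alone (0.0419) and without the third idr1-1 drought library (0.0226).

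More heat shock genes rose than fell, and both genes of proline synthesis rose. In the heat shock list 5 of 9 members rose and 2 fell, against 22.4% and 21.5% of all loci, with a median log2 fold change of 2.43. HSP101 (LOC_Os05g44340), the chaperone that dissolves protein aggregates, went from 4.69, 3.96 and 4.35 CPM to 27.2, 28.6 and 22.6 CPM. HSP17.9A, a small heat shock protein, went from 17.0, 21.0 and 17.8 CPM to 99.5, 98.4 and 103 CPM. The 2 that fell were the most abundant of the list by reads, BIP1, the chaperone of the endoplasmic reticulum, at 349.9, 444 and 467 CPM in control and 210.4, 217 and 215 CPM under drought, and HSP81-1, an HSP90 chaperone, with a log2 fold change of -0.75 ± 0.19. P5CS1 (LOC_Os05g38150), the first enzyme of proline synthesis, rose from 23.5, 21.4 and 22.2 CPM to 219, 172 and 226 CPM, and P5CS2 rose 4.23-fold. TPP1, a trehalose phosphate phosphatase, fell from 4.56, 2.67 and 4.93 CPM to 0.255, 0.233 and 0.501 CPM.

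Regulators showed mixed directions. Of 7 named stress transcription factors 2 rose and none fell, where 22.4% of all loci rose. In the full list 5 of 11 tested members rose and none fell, so the smaller count depends on which names were matched. DREB1C was 1 of the 2 named members that rose (0.254 ± 0.242 to 4.73 ± 3.30 CPM). BZIP23 (LOC_Os02g52780), which acts in the abscisic acid response, had 29.7, 30.7 and 24.9 CPM in control and 143, 138 and 160.4 CPM under drought, while SNAC2, NAC5 and DREB2A were not called, with log2 fold changes of -0.35, 0.13 and 0.23. Of 8 clock genes 4 fell and 1 rose, against 21.5% of all loci called lower and 22.4% called higher. PRR95 (LOC_Os09g36220), a pseudo-response regulator of the clock, had 940.1, 915 and 925 CPM in control and 441, 452 and 476 CPM under drought. GI, which links the clock to flowering, fell from 1562, 1583 and 1671 CPM to 1010, 1026 and 1159 CPM. LHY, a morning gene, was the member that rose (12.6 ± 3.39 to 64.2 ± 9.34 CPM; chosen after its values were seen). PCL1, of the evening complex of the clock, fell from 241 ± 87.9 to 8.86 ± 3.64 CPM and was chosen in the same way. PRR37, PRR73 and ELF3 were not called, though every drought library of each was below every control. With the 6 wild type libraries alone, PRR37 and PRR73 were called as lower (adjusted p = 0.0295 and 0.0476). The same held without the third idr1-1 drought library (0.0118 and 0.0203) and with scaling by library size (0.0153 and 0.026). The part of sampling time in these values was not tested, since no hour is given for any library.

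Both tested members of the flowering list fell, from low control levels. MADS14, a gene of floral meristem identity, had 32, 76 and 66 counts in control and 2, 1 and 0 under drought. MADS1, a gene of floral organs, had 8, 19 and 3 counts in control and 0, 1 and 1 under drought. Its call was lost without control replicate 2 or any of the drought libraries, with adjusted p of 0.0535 to 0.1004. Of 6 genes of the diterpenoid phytoalexin clusters, which make antimicrobial compounds, 3 fell and none rose, against 21.5% and 22.4% of all loci. Those that fell, CPS4, KSL4 and CYP99A2, are of the cluster on chromosome 4, where CYP99A3 was not called. CPS2 and KSL7 of chromosome 2 were not called, with log2 fold changes of -0.20 and 0.56.

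The lists of metabolic genes held changes of moderate size. In the list of sugar and nitrogen metabolism 1 of 6 tested genes rose, SUT1, a sucrose transporter, from 54.2, 60.8 and 65.8 CPM to 82.0, 109 and 116 CPM, and 3 fell, against 22.4% and 21.5% of all loci. Of those that fell, NIA1, a nitrate reductase, lost its call without any wild type library other than control replicate 3 (adjusted p of 0.0519 to 0.0941), and SUS2, a sucrose synthase, did the same (0.0569 to 0.0660, and 0.0835 without the filter on low counts). GLN1-1, a cytosolic glutamine synthetase, fell with a log2 fold change of -0.44 ± 0.12. None of 3 metallothionein and related genes was called. SALT, a lectin named for its response to salt, had 0.664, 0.646 and 0.145 CPM in control and 3.57, 1.59 and 9.98 CPM under drought, an adjusted p of 0.0965. With the 6 wild type libraries alone SALT was called (adjusted p = 0.00466), as was MT2B, a metallothionein (0.00578), and both were called without the third idr1-1 drought library (0.0130 and 0.0284). Of the 8 markers of other tissues 5 were tested and none was called. LSI1 was the closest, with every drought library below every control and an adjusted p of 0.0787, and it was called as lower with the 6 wild type libraries alone (adjusted p = 0.0011), without the third idr1-1 drought library (0.000658) and with scaling by library size (0.0391). Their summed level was 58.0 to 65.6 CPM in control and 47.1 to 60.1 CPM under drought.

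**Figure D3:**
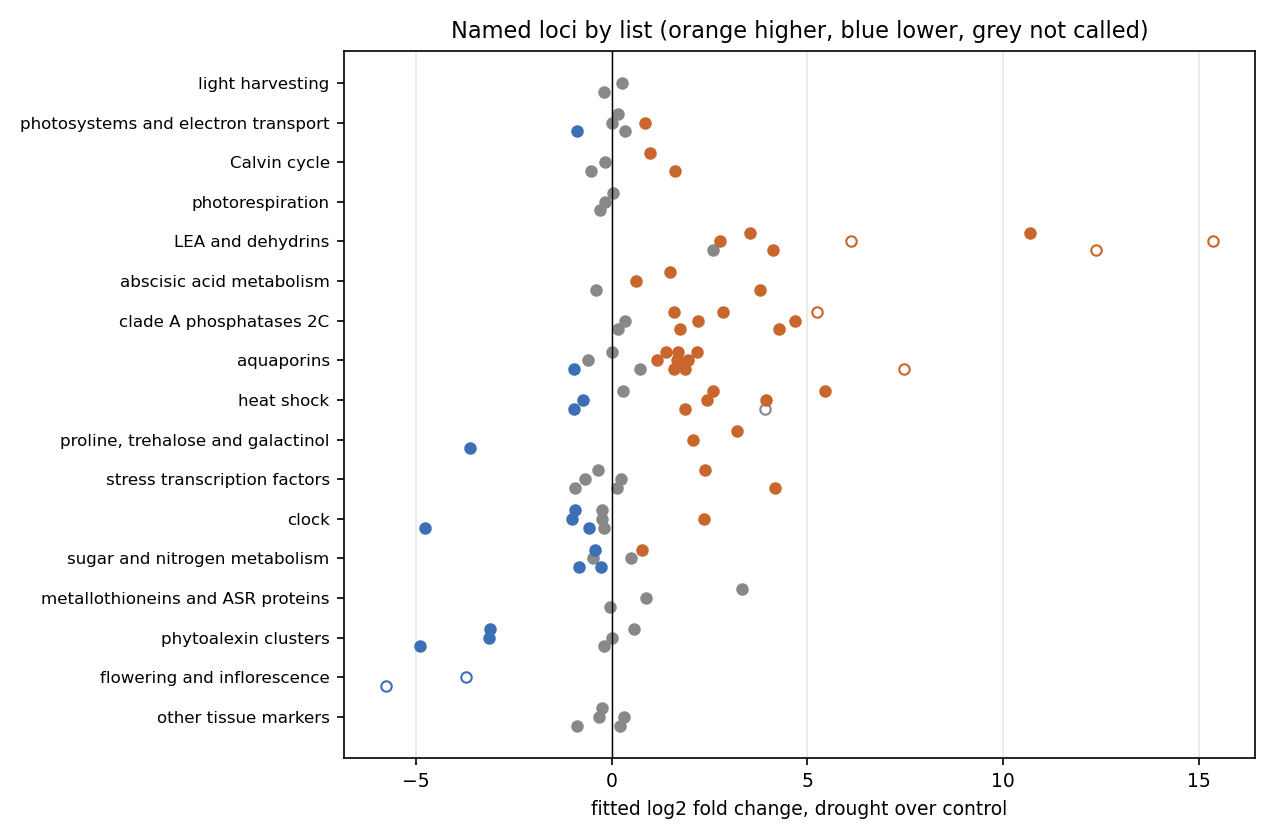
Each point is the fitted log2 fold change, drought over control, of 1 tested member of a list, orange where called higher, blue where called lower and grey where not called. Open points mark genes with at most 3 counts summed over a group, whose fitted size depends on the prior count and is no bound. The LEA, phosphatase and aquaporin rows lie mostly to the right of 0 and the flowering row to the left.

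Some loci were silent in one condition and expressed in the other. Switched on were 30 loci (0.0536% of all entries), with 0 counts in each control library and at least 10 in each drought library, and switched off were 15, by the mirror rule. The loci switched on lay on 11 chromosomes and 8 of them reached 10 CPM, while those switched off lay on 6 chromosomes and 3 reached 10 CPM. The rule used the counts themselves, so the calls of these loci are no further support.

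LOC_Os11g43790 was the most abundant locus switched on. It had 2855, 2258 and 1730 counts in the drought libraries, a level of 95.9 ± 22.5 CPM (SD, n = 3), at least 2128-fold above the 3 counts that a silent group allows. LOC_Os08g34390 had 1698, 743 and 1363 counts, with the second library clearly lower, and was at least 1206-fold higher. LOC_Os11g26570 had 1041, 654 and 1058 counts, some of them shared between loci in fractions. LOC_Os12g31860 had 519, 761 and 613 counts and LOC_Os11g07911 had 837, 445 and 489. LOC_Os04g41640 was uneven, with 1332, 786 and 92 counts, and its adjusted p of 0.0277 rose to 0.0639 to 0.0679 without any 1 of the control libraries or drought replicate 1.

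Among the loci switched off, a pair of neighbours stood at the top. LOC_Os09g19510 had 374, 305 and 471 counts in control and none under drought, at least 415-fold lower. LOC_Os09g19500, the next identifier, had 339, 326 and 354 counts in control and was at least 365-fold lower. LOC_Os01g09190 had 226, 240 and 251 counts and LOC_Os01g09150, near it in the order, had 69, 47 and 65. LOC_Os07g02070 had 45, 67 and 111 counts, part of them fractional, and LOC_Os09g23430 had 42, 27 and 41.

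**Figure D4:**
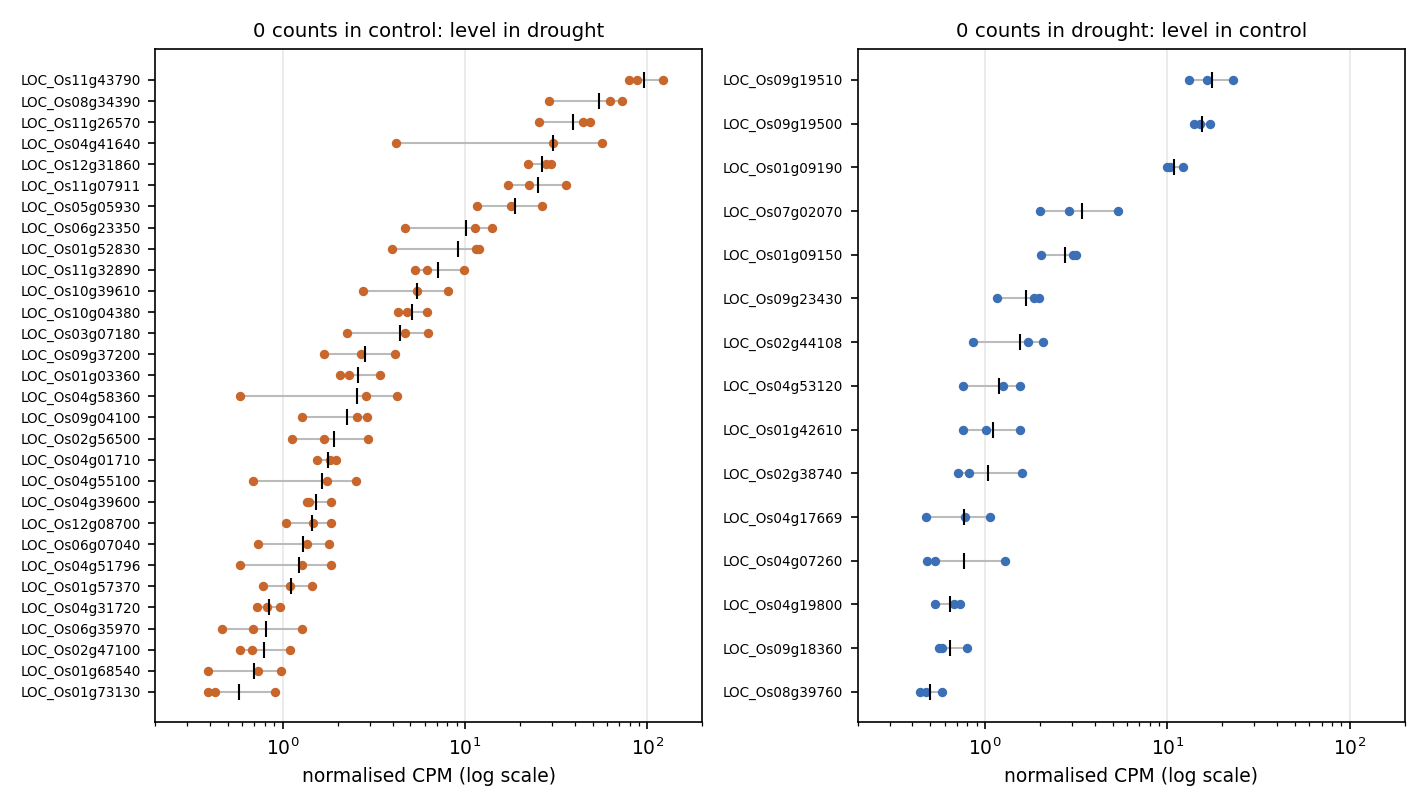
Points give normalised CPM (log axis) in each of the 3 libraries of the group with counts, for the 30 loci with 0 counts in all controls (left, drought libraries) and the 15 loci with 0 counts under drought (right, control libraries), and ticks mark the mean. Levels run from under 1 CPM to 95.9 CPM on the left and to 17.5 CPM on the right.

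The rule must hold in every library, so leaving 1 out can only keep or raise the number of switched loci. Without control replicate 2 there were 55 switched on. Without control replicate 1 there were 23 switched off, and without drought replicate 3 there were 27. In idr1-1 the same rule was met by 9 of the 30 loci switched on and by 1 of the 15 switched off. A single count in the silent group fails the rule. The silent group had 0 counts in idr1-1 at 17 of the 30 and at 4 of the 15. LOC_Os09g19510, LOC_Os09g19500 and LOC_Os01g09190 had 7.99, 7.14 and 24.5 CPM in idr1-1 control, and 1, 2 and 3 counts summed over idr1-1 drought. LOC_Os07g02070 had 0 CPM in idr1-1 control. The rule therefore does not measure how far the genotypes differ. Of 32 tested next neighbours of the loci switched on, 10 were higher and 4 lower under drought, where 22.4% of all loci were higher and 21.5% lower. Of 14 tested next neighbours of the loci switched off, 7 were lower and none was higher, but 2 of the 7 were LOC_Os09g19500 and LOC_Os09g19510, which are switched off themselves and count as each other's neighbour.

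Neighbouring loci moved in the same direction more often than distant ones. Among 2802 pairs of consecutive identifiers in which both loci were called, 1817 (64.8%) changed in the same direction. The share was 59.1% for loci 2 places apart, 53.0% at 5 places, 52.3% at 10 places, 48.9% at 50 places and 48.8% at 100 places. The correlation of log2 fold changes over all tested pairs was 0.19 (Pearson, 13584 pairs) for next neighbours and -0.02 (10431 pairs) at 100 places, given as a description, since pairs share libraries and can share reads. In pairs where either locus held a fractional count the share was 67.9%, and in pairs of whole counts it was 63.4%. Neighbours were set by identifier order and not by distance in bases.

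**Figure D5:**
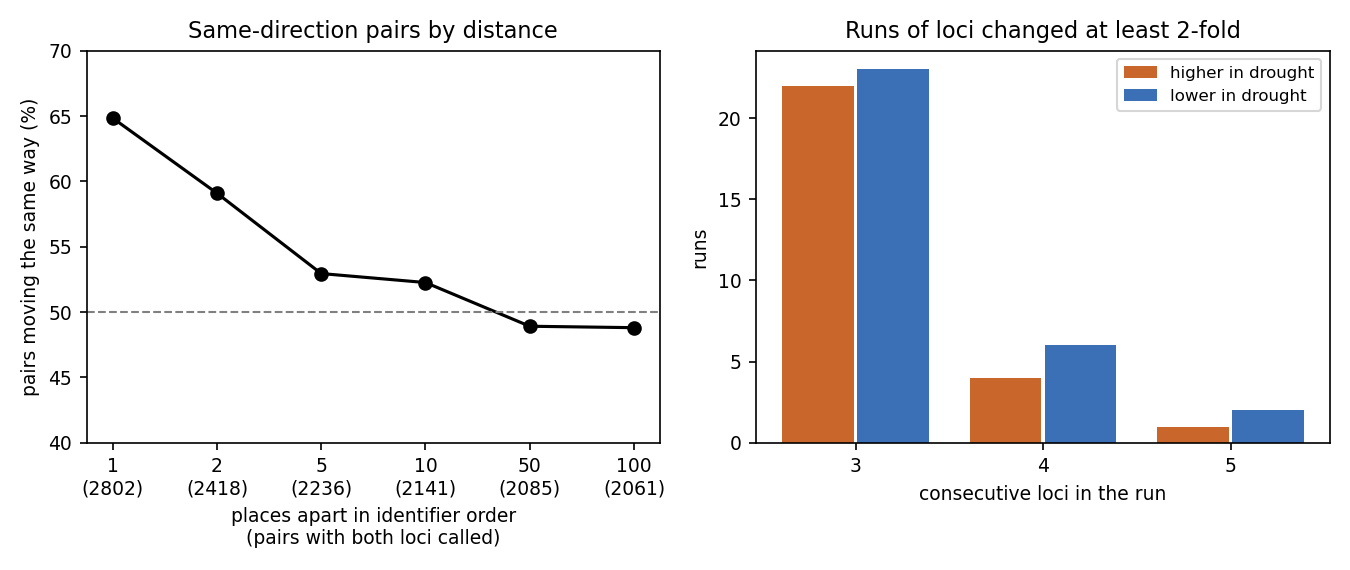
The left panel gives the percentage of pairs with both loci called that changed in the same direction, by the number of places between them in identifier order, with the number of pairs in brackets and a dashed line at 50%. It falls from 64.8% for next neighbours to 48.8% at 100 places. The right panel counts runs of consecutive loci changed at least 2-fold in 1 direction, by their length.

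Runs of at least 3 consecutive loci, all called in 1 direction and at least 2-fold, numbered 58. The 27 runs higher under drought held 87 loci and the 31 lower ones held 103, and the longest were of 5 loci. On chromosome 5, LOC_Os05g20430 to LOC_Os05g20470 rose together. LOC_Os05g20460 led with 1.59, 2.71 and 0.773 CPM in control and 16.8, 11.1 and 16.6 CPM under drought, and LOC_Os05g20440 was the weakest, with 4, 4 and 2 counts against 18, 5 and 14. The call of LOC_Os05g20440 was lost without any wild type library other than drought replicate 2, with adjusted p of 0.0828 to 0.148. It was also lost with scaling by library size (0.054), without the filter (0.0541), by DESeq2 (0.0716) and with the replicate block (0.0726), and the locus did not pass the filter with the 6 wild type libraries alone, so the length of 5 rests on a weak call.

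Another run on chromosome 5, LOC_Os05g38270 to LOC_Os05g38300, held the phosphatase gene PP2C49 (LOC_Os05g38290). PP2C49 rose from 6.90, 7.23 and 2.70 CPM to 173, 113 and 149 CPM. Its neighbours LOC_Os05g38280, with 0, 1 and 0 counts in control and 35, 14 and 15 under drought, and LOC_Os05g38300, with 2, 0 and 0 against 55, 42 and 52, were far lower. LOC_Os05g38270 rose from 13.8, 9.94 and 8.45 CPM to 24.4, 27.0 and 21.0 CPM. PP2C68, PIP2-2 and PP2C09 each lay in a run of 3 loci that rose.

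A further 3 of the 5 longest rising runs had 4 loci each. LOC_Os01g09640 to LOC_Os01g09665 was led by LOC_Os01g09640, from 20.9, 25.9 and 23.7 CPM to 123, 145 and 147 CPM, while LOC_Os01g09665 had 5, 3 and 3 counts against 6, 17 and 27 and an adjusted p of 0.0539 without control replicate 2 and 0.0734 without drought replicate 3. LOC_Os04g12499 to LOC_Os04g12540 rose with log2 fold changes of 1.35 to 2.03. In LOC_Os06g05410 to LOC_Os06g05430 the most abundant member by reads was LOC_Os06g05430, from 3.54, 3.23 and 2.46 CPM to 16.8, 14.3 and 13.8 CPM. The calls of LOC_Os06g05410 and LOC_Os06g05424 were lost without 1 of several libraries (control replicate 1, drought replicate 2 or 3, and control replicate 1 or 2, drought replicate 3), with adjusted p of 0.0538 to 0.0739.

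The falling runs of 5 loci were on chromosomes 9 and 6. LOC_Os09g23420 to LOC_Os09g23460 had 33, 22 and 38 counts at its first locus in control and 0, 0 and 2 under drought, and 3 of its loci had 0 counts in each drought library. Levels there were under 2 CPM in every control library. LOC_Os09g23450 and LOC_Os09g23460 did not pass the filter with the 6 wild type libraries alone, so the length of 5 was not reached in that fit. LOC_Os06g32870 to LOC_Os06g32910 was led by LOC_Os06g32910, from 20.8, 19.03 and 13.7 CPM to 3.87, 4.11 and 2.23 CPM, but all 5 loci carried fractional counts and could draw on the same reads.

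Higher in level was the falling run LOC_Os01g65130 to LOC_Os01g65169 of chromosome 1. LOC_Os01g65169 went from 124, 154 and 124 CPM to 15.5, 13.02 and 20.5 CPM, and LOC_Os01g65130 from 31.3, 28.6 and 27.9 CPM to 3.11, 2.29 and 4.69 CPM. LOC_Os11g11960 to LOC_Os11g11990 of chromosome 11 was led by LOC_Os11g11960, from 107, 97.4 and 104 CPM to 17.695, 18.6 and 14.6 CPM. The groups of both runs were clearly apart at every locus. LOC_Os01g02800 to LOC_Os01g02840 stayed under 5 CPM, all of its loci with fractional counts, and the call of LOC_Os01g02810 was lost without drought replicate 2 (adjusted p = 0.0636).

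Known gene clusters moved as blocks in part. A row of 4 dehydrin genes lies on chromosome 11 and all rose, RAB16D, RAB16C, RAB16B and RAB21, with LOC_Os11g26770 between them at 0 counts in all 6 libraries. RAB16C went from 3.74 ± 0.396 to 43.2 ± 12.7 CPM and RAB16D from 0.0483 ± 0.0836 to 3.54 ± 0.959 CPM (both chosen after their values were seen). All 4 carried fractional counts, so how reads divide among these near copies is uncertain. In the momilactone cluster of chromosome 4, CPS4, the cyclase that starts the pathway, fell from 7.88, 4.35 and 6.04 CPM to 1.11, 0.581 and 0.364 CPM and CYP99A2, an oxidase of the pathway, from 64, 43 and 69 counts to 3, 2 and 1, while CYP99A3, its close relative in the same cluster, had a log2 fold change of 0.01 ± 0.20. By chromosome, 20.1% to 26.2% of tested loci were higher and 18.7% to 23.5% lower.

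The wild type response was largely shared with idr1-1, whose own comparison called 8129 loci (35.6%) between its drought and control libraries. Of the 4135 wild type calls of at least 2-fold, 3103 were called in the same direction in idr1-1 and 7 in the opposite one. The test of the difference between both responses called 11 loci (0.0482%), of which 6 were called in wild type, and 3540 loci had an unadjusted p under 0.05. LOC_Os10g39090 rose in wild type with a log2 fold change of 1.40, against -0.44 in idr1-1 (adjusted p of the difference 0.0224). LOC_Os02g38780 fell from 4.18 to 0.268 CPM in wild type, a log2 fold change of -3.94, against 0.72 in idr1-1 (adjusted p of the difference 0.0327). LOC_Os03g62200 fell in both, by 1.74 on the log2 scale in wild type and by 3.70 in idr1-1. Without the third idr1-1 drought library the number of loci that differed was 489, and among them were all 11. By DESeq2 it was 684, and with the replicate block it was 0, so the count of 11 depends on the fit.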

How the data were processed

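Leaf RNA of 12 libraries was sequenced, and the wild type drought and control libraries, 3 each, were compared here. The deposited values are estimated counts per locus, not scaled to depth, which the authors made with HISAT2 2.1.0 and featureCounts 1.6.3, per the submitters' processing notes. Build, annotation, strandedness and counter settings were not given in the sources used here. In each library 13.3% to 14.8% of the nonzero values were not whole, so some reads were shared between loci, and near-identical, overlapping or antisense genes are uncertain. Of the loci tested, 4457 (19.5%) held such a value in a wild type library. Whole counts had been planned for, so values were rounded first, which moved a library total by at most 0.00113%.

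Analysis used R 4.3.3 and edgeR 4.0.16: filterByExpr, TMM scaling, and the quasi-likelihood fit over 12 libraries, a mean for each group leaving 8 residual degrees of freedom, with Benjamini-Hochberg adjustment over 22833 loci and calls at an adjusted p under 0.05. The p-values measure the spread between these libraries. A floor of 3 counts equals 0.116 to 0.145 CPM in a wild type library, and a fold against a silent group was set against 3 counts over the group. Floors cover counting error only. No replicates were duplicates, with a chi-square of at least 9.83 per locus in wild type.

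Of 168 recalled gene names, 103 matched the gene table by symbol, chromosome and order, and the other names are not used. Their loci enter the counts given for a full list. No locus identifier of the files is in that table, so a name is the published assignment. A further gene of the lists is not reported here. The loci, lists and rules were chosen with earlier results of these data known. Named loci are the 12 largest gains and losses, the 6 most abundant loci switched each way, the loci of the 5 longest runs each way, up to 4 members per list by level, and the 4 largest fold changes of each class from 10 CPM. Alternatives were DESeq2 1.42.0, other scalings, no filter, wild type libraries only, a replicate block, other rules for switched loci and neighbours, and leaving out each library.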

Additional observations from a re-analysis of the deposited data

Results flagged for a closer look

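The drought responses of wild type and idr1-1 differed at 11 loci by edgeR's test of the interaction (adjusted p under 0.05), and each value here is the log2 fold change of wild type minus that of idr1-1. In 8 loci the wild type value was the higher: LOC_Os09g26260 (2.20), LOC_Os10g39100 (2.0), LOC_Os03g62200 (1.97), LOC_Os10g39090 (1.84), LOC_Os01g71690 (1.28), LOC_Os09g28650 (1.17), LOC_Os08g42910 (0.97) and LOC_Os11g07930 (0.97). In 3 it was the lower: LOC_Os02g38780 (-4.67), LOC_Os05g32500 (-1.11) and LOC_Os04g58910 (-1.04). LOC_Os10g39090 and LOC_Os10g39100 are consecutive identifiers. None of the 11 was called with a replicate block, where the smallest adjusted p was 0.0847.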

How the results depend on the processing

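Counts of loci called higher and lower stayed within 1.5 times under every alternative run, at 4029 to 5969 higher and 4073 to 5796 lower. Of 1776 values of the 137 named loci over 13 settings, 1697 kept the call or its absence, 54 lost the call and 25 gained it. No called value reversed its direction. For loci called in neither fit, no statement on direction is made. Same-direction neighbours were 62.1% when untested loci were skipped, 62.8% with fractional loci left out, and 66.0% to 67.4% with 1 library left out. Runs numbered 139 and 37 in the first 2 of these. Loci switched on numbered 100 with up to 3 counts allowed in the silent group, and 33 to 55 with 1 library left out. Loci switched off numbered 31 with at least 5 counts required, 7 with at least 20, 47 with up to 3 allowed in the silent group, and 16 to 27 with 1 library left out. A looser rule or a library left out can only keep or raise the numbers of switched loci, and a stricter rule can only keep or lower them. The difference in share of the most abundant loci was -0.39 percentage points for the top 20 (exact permutation p = 0.7) against 0.22 for the top 100, and ran from -0.49 to 0.94 with 1 library left out. With classes from the control mean, 37.8% under 1 CPM and 22.1% at 1000 CPM and over were called. For the shifts other than those of switched loci, the cause was not tested.

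Same-numbered control and drought libraries correlated at 0.06, -0.16 and 0.02 in their deviations, and differently numbered ones at -0.20 to 0.17. Deviations from a mean of 3 libraries depend on each other, so these values cannot decide whether replicate numbers pair the samples. With the replicate block, 4722 loci were higher and 4516 lower, and 0 differed between genotypes (3032 at an unadjusted p under 0.05). The last count was 489 without idr1-1 drought library 3 and 684 by DESeq2, each including all 11.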
